A study of Rattus norvegicus with 10 samples.

Results

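Mitosis and spindle genes are a set of 45 genes whose products drive cells into and through division, and they were followed in 5 rat mammary tumours sampled before and after treatment with hydroxytyrosol. The set was given as a list of symbols, and a member counted as measured where a probe set of the array carried that symbol and no other. By this rule 40 of the 45 were measured, on 56 probe sets, out of 14217 genes measured in all. Ckap2 and Anln had only probe sets shared with another symbol, and Tpx2, Ndc80 and Nek2 had no probe set under these symbols. One probe set stood for each gene, the brightest over the 10 arrays, and 39 members passed a filter that left out the dimmest 40% of probe sets (a mean below 5.14 on the log2 scale). Cenpa was below it, and its values are given without a test.

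The final group was taken from female Sprague-Dawley rats aged 19 weeks, at sacrifice in week 7 after the biopsy, after 6 weeks of oral hydroxytyrosol, given 5 days a week at 0.5 mg/kg. Hydroxytyrosol is a phenolic compound of olives. The basal group was a Trucut needle biopsy of the same tumours at 12 weeks of age, taken at a volume of 2 cm3 and before any treatment. Both groups carried tumours induced with one oral dose of 100 mg/kg of the carcinogen 7,12-dimethylbenz(a)anthracene, and 5 tumours of Bloom-Richardson grade II (66D2, 67D3, 45D3, 49I1 and 51I1) gave a final and a basal sample each, 10 arrays in all. The labels call the final pieces total tumour, while the design text names a needle sample at both moments. Treatment, 7 weeks of age and growth, and any change of sampling cannot be told apart here, since tumours left without hydroxytyrosol were not analysed here. The numbers in the sample titles also run in separate blocks for final and basal arrays, and what they stand for is not stated.

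Cells about to divide switch on cyclin B and its kinase Cdk1, build a bipolar spindle with kinesin motors and microtubule-binding proteins, and hold back anaphase through a checkpoint at the kinetochores until every chromosome is attached. The transcripts of these genes accumulate late in the cell cycle and are low in resting cells, so in a tissue their levels go with the share of cells in cycle. Ki-67, the product of Mki67, is the usual stain for proliferating cells in breast tumours. In bulk samples such as these, fewer cells of a type and less RNA per cell cannot be told apart.

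Many promoters of this class are known in mammals for a pair of short elements, the CCAAT box, bound by the factor NF-Y, and the cell cycle genes homology region, bound by the DREAM and MuvB complexes. Windows with both elements are shown because they belong to members followed array by array below (Ccnb2, Cdk1, Cdc20 and Plk1), and the Melk window is shown because it held neither. Each runs from 140 bases before the annotated start to 20 bases after it, 5′ to 3′ on the gene's strand, from RefSeq on GRCr8, with capitals marking the CCAAT box (CCAAT, or ATTGG when it lies on the other strand) and the homology region (TTTGAA, or TTCAAA when on the other strand, and TTCGAA, which reads the same on both).
Ccnb2 (chr8:79981639-79981798, minus strand): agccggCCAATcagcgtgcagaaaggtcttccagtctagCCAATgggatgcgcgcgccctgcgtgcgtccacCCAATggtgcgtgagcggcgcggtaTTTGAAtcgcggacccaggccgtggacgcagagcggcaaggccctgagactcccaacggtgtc
Cdk1 (chr20:19265153-19265312, plus strand): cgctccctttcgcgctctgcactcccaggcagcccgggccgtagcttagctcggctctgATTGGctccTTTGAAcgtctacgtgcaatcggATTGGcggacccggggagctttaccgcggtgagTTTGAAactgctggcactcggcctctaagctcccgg
Cdc20 (chr5:137255780-137255939, minus strand): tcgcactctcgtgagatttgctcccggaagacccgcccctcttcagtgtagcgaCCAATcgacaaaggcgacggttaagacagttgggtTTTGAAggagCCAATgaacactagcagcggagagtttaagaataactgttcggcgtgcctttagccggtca
Plk1 (chr1:186147518-186147677, plus strand): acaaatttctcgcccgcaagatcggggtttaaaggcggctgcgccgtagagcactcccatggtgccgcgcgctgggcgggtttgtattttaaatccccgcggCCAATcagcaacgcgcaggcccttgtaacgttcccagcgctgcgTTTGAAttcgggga
Melk (chr5:63336011-63336170, plus strand): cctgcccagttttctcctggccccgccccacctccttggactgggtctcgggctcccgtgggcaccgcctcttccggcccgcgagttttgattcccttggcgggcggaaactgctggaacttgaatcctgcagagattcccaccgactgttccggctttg

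RefSeq promoters of 300 bases (250 before the start and 50 after it) were at hand for 39 of the 45 members; Ccna2, Aurkb, Tpx2, Ube2c, Foxm1 and Racgap1 had no entry. A CCAAT box on either strand was present in 30 of the 39 promoters (76.9%), against 37.7% of the 9026 promoters of genes tested here and 37.7% of all 27457 in the table. The homology region, on either strand, was present in 28 of 39 (71.8%), against 13.1% of the tested genes' promoters and 19.5% of all. Both elements stood in 23 of the 39 promoters (59.0%), against 5.53% of the tested genes' promoters and 7.83% of all, and 23 members held 2 or more CCAAT boxes (59.0%), against 13.6% and 11.5%. By these letters, the 4 promoters with neither were those of Bub1, Aurka, Kif2c and Melk. Other spellings of the elements were not searched, and each window depends on where the start is annotated. A match of letters is a description of these windows and shows no binding.

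Across the table no probe set passed an adjusted p of 0.05 in the paired comparison of final with basal samples (limma with Benjamini-Hochberg adjustment over 18625 probe sets, smallest adjusted p 0.413), and 1494 had an unadjusted p under 0.05. Array medians over the tested probe sets lay between 7.67 and 7.80. The hexokinase control, whose probe sets near the 3′ and the 5′ end differ more where RNA is shorter, gave log2 gaps of 0.89 to 1.10 on the 5 final arrays, against 2.03 and 2.36 in the biopsies of 67D3 and 45D3 and 0.97 to 1.29 in the 3 other biopsies. On this control these 2 biopsies stand apart from the rest. The same gap for the GAPDH control was 0.48 in the 45D3 and 0.27 in the 67D3 biopsy, against 0.03 and 0.28 in their final samples. For beta-actin it was 1.25 and 1.04, against 0.70 and 0.99. On these 2 controls the 67D3 biopsy was close to its own final sample. The results below are also given without 45D3 and without both tumours. The luminal epithelial markers were present in all samples. Their linear signals, a sum that the brightest probe sets dominate, came to 33300 to 46000 in final and 32200 to 46300 in basal samples, and Epcam averaged 12.86 ± 0.20 in final and 12.85 ± 0.13 in basal samples (SD, n = 5 each). Of 15 luminal markers, Esr1 and Foxa1 were below the filter. Of the 13 tested, Pgr, the progesterone receptor, was the 1 with an unadjusted p under 0.05, where 4.36% of all genes were lower at that level. Pgr averaged 7.56 ± 0.89 in final and 8.06 ± 0.83 in basal samples (SD, n = 5 each) and was lower in 5 of 5 tumours (difference -0.50, adjusted p = 0.610, limma). Over all genes, 5.27% were lower in all 5 tumours.

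The mitotic genes were lower on average in final samples, but no single gene passed the test, and the direction did not hold in every fit. A fit with the change of the skeletal muscle markers in each tumour as a covariate gave the difference at no muscle change. That point lies outside the changes seen, 0.20 to 6.70. The members' median there was 0.16, with 3 of 39 below 0. Without tumour 67D3, and with no covariate, the median was -0.13. All 39 tested members had a mean difference below 0 (final minus basal, log2), against 52.1% of the 10839 genes tested. Their differences ran from -0.59 for Melk to -0.21 for Kif2c and Cdc20, with a median of -0.37, against a median of -0.01 over all genes. None had an adjusted p under 0.05 (0 of 39, background 0.0%; smallest 0.637 and largest 0.851, limma), and none had an unadjusted p under 0.05 in either direction, where 4.36% of all genes were lower and 2.78% higher at that level. The smallest unadjusted p of a member was 0.0585, for Foxm1. The 39 counts are not independent of each other, since the members varied together from tumour to tumour.

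The direction differed between tumours: members were lower in 3, split in 66D2 and higher in 45D3. In 45D3 all 40 measured members were higher in the final sample, with a median difference of 0.92 that ran from 0.23 for Foxm1 to 1.37 for Ttk. Samples were also compared over all tested probe sets, each taken as its deviation from the mean of the 5 arrays of its group. On these deviations, the final sample of 45D3 was not most like its own biopsy (correlation -0.16), while the final samples of the other 4 tumours were. In 67D3 all 40 members were lower, with a median of -1.34, and in 49I1 all 40 were lower, with a median of -1.04. Tumour 51I1 had a median of -0.40, with 36 members lower and 4 higher, and 66D2 had a median of -0.06, with 26 lower and 14 higher. Medians of all genes tested lay between -0.08 and 0.04 in the same 5 tumours. Hence 24 of 39 members (61.5%) were lower in 4 of 5 tumours, against 26.7% of all genes with 4 or 5, and 0 members were lower in all 5, against 5.27% of all genes.

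**Figure D1:**
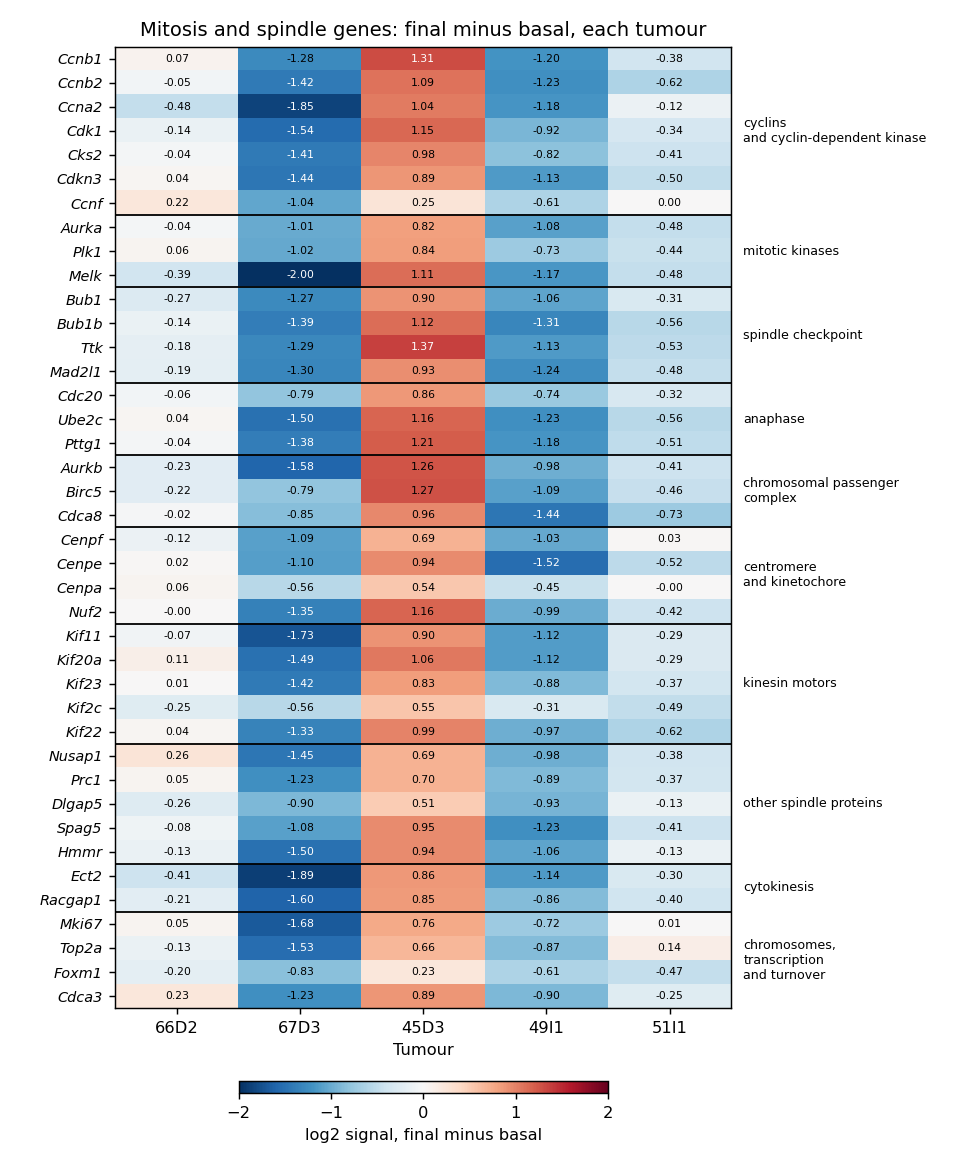
Difference in log2 signal, final minus basal, for the 40 measured mitosis and spindle genes (rows, grouped by role) in each of the 5 tumours (columns); blue is lower and red higher in the final sample. The columns of 67D3 and 49I1 are blue throughout, with medians of -1.34 and -1.04, and the column of 45D3 is red throughout, with a median of 0.92.

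The spread between tumours was wider than the difference between the groups. The SD of a tested member between tumours had a median of 1.29 in final and 1.14 in basal samples, against 0.24 in final and 0.25 in basal samples over all genes. An SD of 1 or more was found for 33 of 39 members in final samples (4.2% of all genes) and for 34 of 39 in basal samples (3.73% of all genes). The members' standard errors had a median of 0.33, against 0.13 over all genes. The final and basal ranges overlapped for all 40 members; over all genes tested, 1.2% had ranges that did not overlap.

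Most of that spread was common to the members. For each array the median deviation of the 40 members from their own means came to 0.90, -2.35, -0.14, 0.35 and 0.27 in final samples, against 0.95, -0.98, -1.06, 1.38 and 0.66 in basal samples (in the order 66D2, 67D3, 45D3, 49I1 and 51I1). All 40 members had their lowest value of the 10 arrays in the final sample of 67D3, and 39 of 40 were highest among final arrays in 66D2 (Kif2c was highest in 45D3). Among the biopsies, 39 of 40 were highest in 49I1 (Hmmr read 8.30 in both 66D2 and 49I1), and the 2 lowest were 45D3 and 67D3 for all 40. After the members' median on each array was subtracted, the median SD over the 10 arrays was 0.20, against 1.17 before; the SD was smaller afterwards for 38 members and larger for Kif2c and Cenpa. The lowest biopsy was 45D3 for 28 members and 67D3 for 12.

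**Figure D2:**
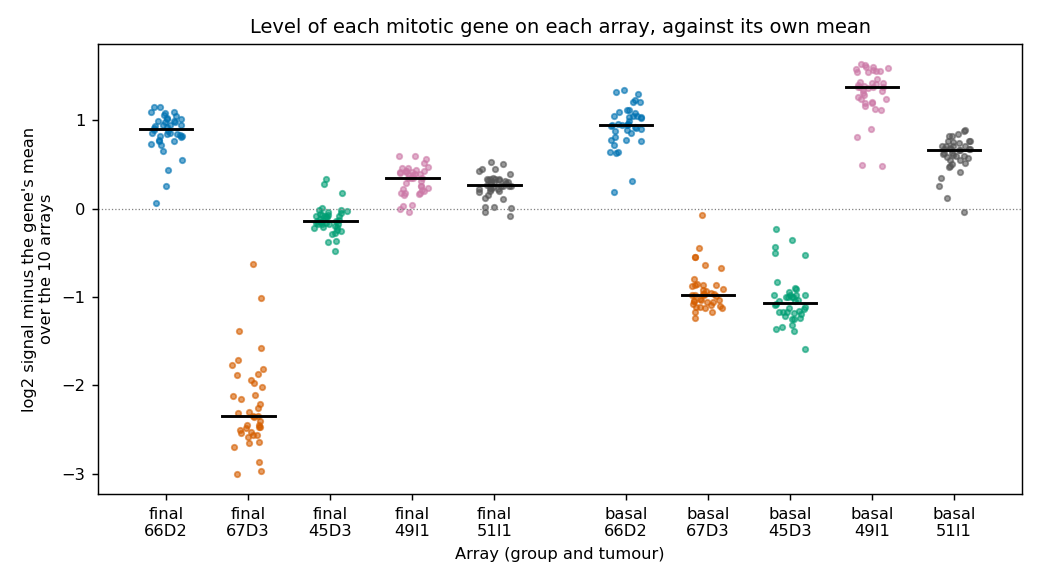
Log2 signal of each of the 40 measured members on each array minus that gene's mean over the 10 arrays (points), with the median of the members on the array (bars), final arrays on the left and basal arrays on the right. The final array of 67D3 lies lowest, with a median of -2.35, and the biopsies of 67D3 and 45D3 lie at -0.98 and -1.06.

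Values per array below are log2 signals in the order 66D2, 67D3, 45D3, 49I1 and 51I1, and each probe set is compared only with itself. The cyclins and their kinase were lower on average in all 7 measured members, with a role median of -0.36. Ccnb1, the cyclin that brings Cdk1 to mitotic entry, read 9.80, 6.13, 8.57, 9.04 and 8.98 in final samples, against 9.73, 7.41, 7.26, 10.24 and 9.36 in basal samples. The mean difference was -0.30 (SE 0.38, adjusted p = 0.850, limma), and 66D2 hardly differed, 45D3 was higher in the final sample and the other 3 were lower. Ccnb2, its sister cyclin, read 10.12, 6.67, 9.02, 9.53 and 9.43 in final samples, against 10.16, 8.09, 7.93, 10.76 and 10.05 in basal samples. On average Ccnb2 differed by -0.44 (SE 0.36, adjusted p = 0.771, limma), with 4 of 5 tumours lower. Cdk1, the kinase itself, read 10.55, 6.85, 9.41, 9.95 and 9.81 in final samples, against 10.69, 8.38, 8.26, 10.86 and 10.15 in basal samples, a mean difference of -0.36 (SE 0.36, adjusted p = 0.812, limma). Among the others, Ccna2, the cyclin of S phase and early mitosis, ranged over 5.09 to 8.78 in final and 6.86 to 9.49 in basal samples (difference -0.52). Cks2, a small subunit of cyclin-dependent kinases, differed by -0.34, Cdkn3, a phosphatase that acts on these kinases, by -0.43, and Ccnf, a cyclin-like substrate receptor of an SCF ubiquitin ligase, by -0.24.

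Among the mitotic kinases, the 3 measured members had a median of -0.36. Aurka, the centrosomal Aurora kinase of spindle assembly, read 8.81, 6.04, 7.83, 8.10 and 7.95 in final samples, against 8.85, 7.05, 7.01, 9.18 and 8.43 in basal samples. Over the 5 tumours Aurka differed by -0.36 (SE 0.28, adjusted p = 0.762, limma), with 49I1 and 67D3 lower by about the same amount. Plk1, the Polo-like kinase, read 9.24, 6.27, 8.04, 8.67 and 8.36 in final samples, against 9.18, 7.30, 7.20, 9.40 and 8.80 in basal samples, a mean difference of -0.26 (SE 0.27, adjusted p = 0.816, limma). Melk, a kinase of the AMPK-related family, had the lowest mean difference of all members. It read 8.83, 4.92, 7.82, 8.31 and 8.09 in final samples, against 9.22, 6.92, 6.71, 9.48 and 8.57 in basal samples, and the mean difference was -0.59 (SE 0.41, adjusted p = 0.731, limma). In 67D3 Melk differed by -2.0, but its final value there, 4.92, lay under the filter level of 5.14, while 45D3 stood at 1.11. Ccna2, Bub1b, Ttk, Kif11, Cenpe, Cenpa and Hmmr were under that level on the same array too, and near that level the size of a difference is uncertain.

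The 4 checkpoint genes keep anaphase waiting for unattached chromosomes, and all 4 were lower on average, with a median of -0.43. Bub1b, which encodes BubR1, read 8.17, 4.66, 7.20, 7.45 and 7.48 in final samples, against 8.32, 6.06, 6.08, 8.76 and 8.04 in basal samples. Bub1b differed on average by -0.46 (SE 0.36, adjusted p = 0.764, limma), with 4 of 5 tumours lower. Ttk, the kinase Mps1, differed by -0.35, Bub1 by -0.40 and Mad2l1, which encodes Mad2, by -0.46. The genes of the step into anaphase had a median of -0.38. Cdc20, the activator of the anaphase-promoting complex, read 9.01, 6.31, 8.05, 8.56 and 8.41 in final samples, against 9.08, 7.09, 7.19, 9.30 and 8.73 in basal samples. The mean of Cdc20 differed by -0.21 (SE 0.25, adjusted p = 0.839, limma), among the smallest of the tested members. Ube2c, an E2 enzyme of that complex, differed by -0.42 and Pttg1, which encodes securin, by -0.38.

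The chromosomal passenger complex corrects faulty attachments and stays at the midzone for cytokinesis, and its 3 members had a median of -0.39. Birc5, which encodes survivin, read 7.69, 5.26, 6.89, 7.21 and 7.18 in final samples, against 7.91, 6.04, 5.61, 8.30 and 7.64 in basal samples. The mean difference was -0.26 (SE 0.33, adjusted p = 0.851, limma), with 45D3 higher by 1.27. Aurkb, the kinase of the complex, differed by -0.39, and Cdca8, which encodes borealin, by -0.42. At the centromere and kinetochore, Cenpe, a kinesin-like motor, differed by -0.44, Cenpf by -0.30 and Nuf2, a subunit of the Ndc80 complex, by -0.32. Cenpa, the histone H3 variant of centromeres, read 4.40, 3.51, 4.32, 4.18 and 4.10 in final samples, against 4.34, 4.08, 3.79, 4.63 and 4.11 in basal samples. Its mean difference was -0.09, and at this signal level, below the filter, its values carry little.

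Of the kinesin motors, all 5 were lower on average, with a median of -0.36. Kif11, the motor Eg5 that pushes spindle poles apart, read 8.65, 4.97, 7.60, 7.98 and 8.01 in final samples, against 8.71, 6.70, 6.69, 9.09 and 8.30 in basal samples. On average Kif11 differed by -0.46 (SE 0.36, adjusted p = 0.760, limma), and 67D3 differed by -1.73. Kif2c, a kinesin that depolymerises microtubules, read 8.28, 7.21, 8.55, 8.39 and 8.14 in final samples, against 8.53, 7.77, 7.99, 8.70 and 8.63 in basal samples. Kif2c differed on average by -0.21 (SE 0.18, adjusted p = 0.774, limma), and its SD between tumours was 0.53 in final and 0.42 in basal samples. Its SD over the 10 arrays was 0.46, against a median of 1.17 for the members. The further probe set of Kif2c differed by 0.93 in 45D3 and -0.65 in 49I1, against 0.55 and -0.31 on the brightest. Kif20a and Kif23, motors of the central spindle, differed by -0.34 and -0.36, and Kif22, a chromosome-binding kinesin, by -0.38.

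The other measured spindle proteins numbered 5 and had a median of -0.37. Dlgap5, a microtubule-binding protein also called HURP, read 8.30, 5.93, 7.77, 7.94 and 7.97 in final samples, against 8.56, 6.83, 7.26, 8.87 and 8.11 in basal samples. On average Dlgap5 differed by -0.34 (SE 0.22, adjusted p = 0.713, limma), with an unadjusted p of 0.172. Nusap1 differed by -0.37, Prc1, which cross-links microtubules of the midzone, by -0.35, Spag5, or astrin, by -0.37 and Hmmr, a hyaluronan receptor that also binds the spindle, by -0.38. For cytokinesis, Ect2, the exchange factor that activates RhoA at the cleavage furrow, read 9.23, 5.31, 8.16, 8.78 and 8.62 in final samples, against 9.63, 7.20, 7.31, 9.92 and 8.92 in basal samples. Ect2 differed on average by -0.58 (SE 0.37, adjusted p = 0.709, limma), with an unadjusted p of 0.161. Racgap1, a subunit of centralspindlin that binds Ect2, differed by -0.44.

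Mki67 read 10.12, 6.55, 8.74, 9.71 and 9.64 in final samples, against 10.07, 8.24, 7.98, 10.42 and 9.63 in basal samples. Its mean difference was -0.32 (SE 0.33, adjusted p = 0.821, limma), with 2 tumours lower by more than 0.7, 45D3 higher by 0.76, and 66D2 and 51I1 within 0.05 of no difference. Top2a, the topoisomerase that untangles chromosomes, read 9.64, 6.43, 8.66, 9.34 and 9.22 in final samples, against 9.77, 7.96, 8.0, 10.21 and 9.08 in basal samples, a mean difference of -0.35 (SE 0.31, adjusted p = 0.789, limma). Foxm1, a transcription factor that switches on many mitotic genes, read 7.30, 5.48, 6.57, 7.15 and 6.87 in final samples, against 7.50, 6.31, 6.33, 7.76 and 7.34 in basal samples. Its mean difference was -0.38 (SE 0.16, adjusted p = 0.637, limma), with the smallest difference in 45D3 of all members (0.23). Cdca3, which marks a mitosis inhibitor for destruction, differed by -0.25.

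**Figure D3:**
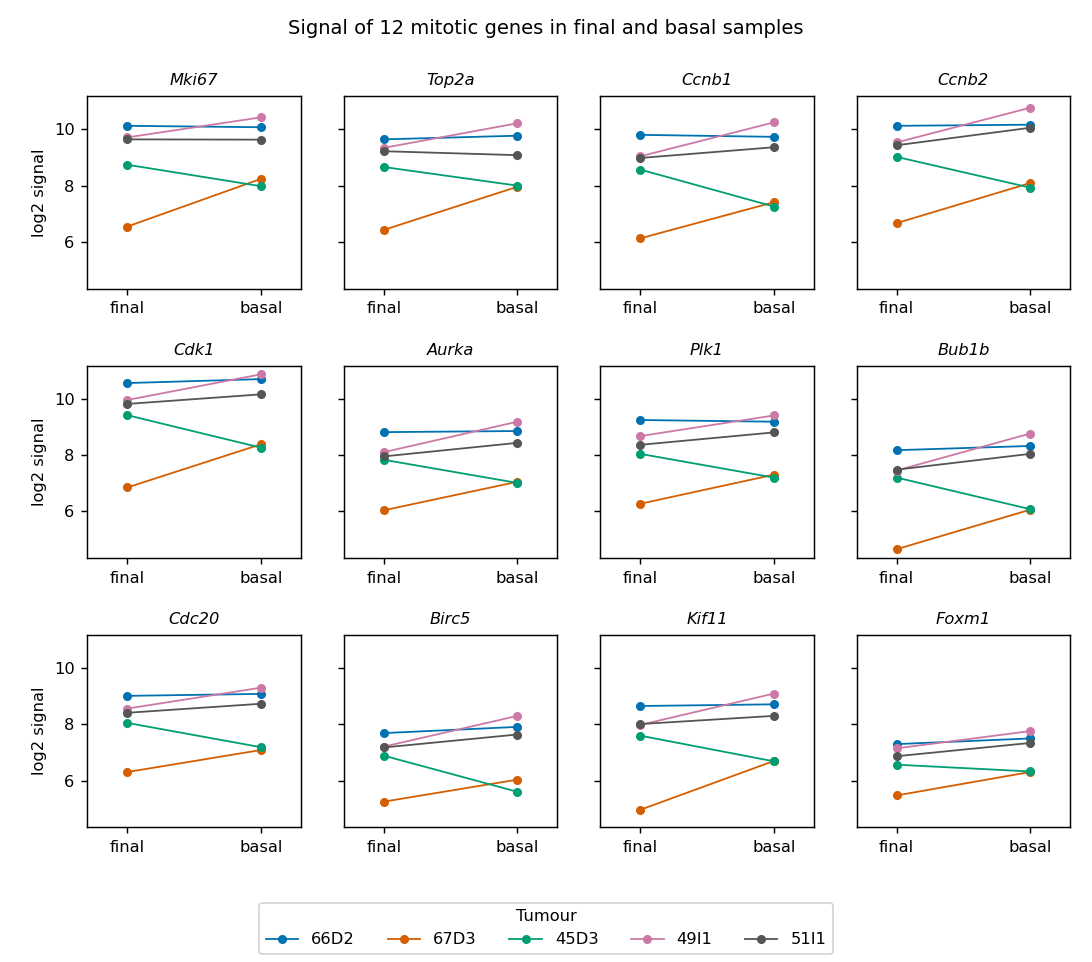
Log2 signal of 12 mitotic genes in the final (left) and basal (right) sample of each of the 5 tumours, joined by a line for each tumour and drawn on one shared scale. In every panel the line of 67D3 is the lowest on the final side, and the line of 45D3 alone runs up towards the final side throughout, as for Ccnb1 with 8.57 in the final and 7.26 in the basal sample.

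Probe sets of the same gene gave mean differences of the same sign, but not always of a like size. For the 12 members with several probe sets (28 in all), all 16 further probe sets had mean differences below 0 like the brightest one, and 12 of the 16 were above the filter. Cdc20 had mean differences of -0.21 and -0.14 on its 2 probe sets above the filter. Kif23 had -0.36 on the brightest and -0.01 on the further probe set, with -1.42 and -0.13 in 67D3. For Ttk the values in 67D3 were -1.29 and -0.12.

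The size of the difference rested on single tumours. With 45D3 left out, the members' median was -0.70 and 33 of 39 (84.6%) had an unadjusted p under 0.05 and were lower, against 10.7% of all genes, while 0 passed the adjusted threshold (smallest 0.163, limma). This left out the tumour in which all 40 measured members were higher, and the members varied together, so the 33 are not separate results. With 67D3 left out the median was -0.13, and with 49I1 left out it was -0.21; 0 members had an unadjusted p under 0.05 in either case. It was -0.44 without 66D2 and -0.36 without 51I1. Without 45D3 and 67D3 together, a choice made after seeing the data, the median was -0.49 and 15 of 39 (38.5%) were lower at an unadjusted p under 0.05, against 8.45% of all genes. With arrays weighted by how well they followed the fit, which gave 45D3 a weight of 0.36 and 66D2 a weight of 2.01, the median was -0.50 and 8 of 39 (20.5%) reached that level, against 9.68% of all genes. Mki67 stood at 0.03 without 67D3, the only member above 0 with a tumour left out.

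**Figure D4:**
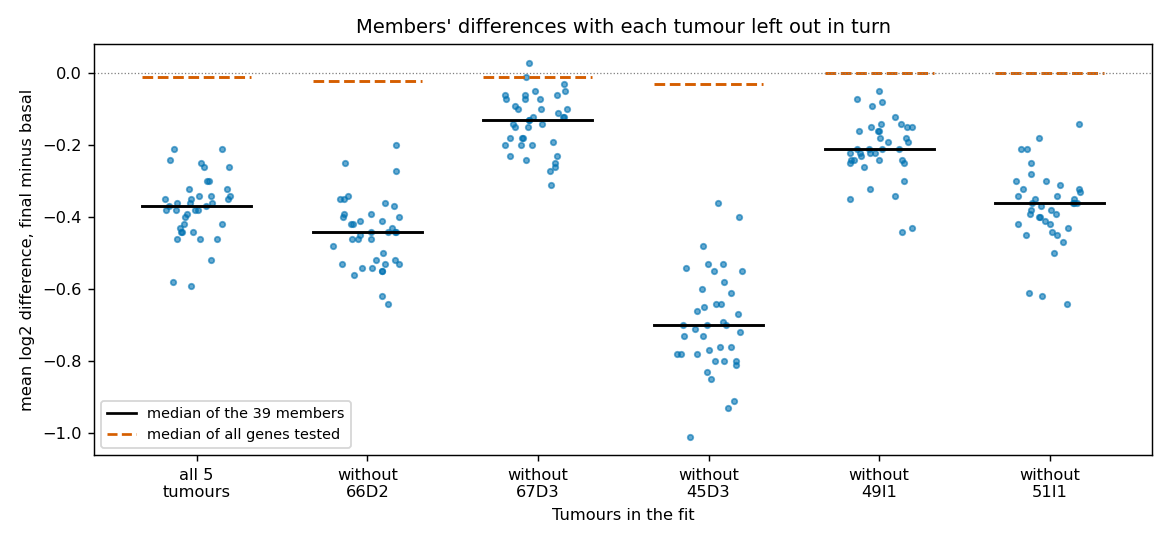
Mean log2 difference, final minus basal, of the 39 tested members (points) with all 5 tumours and with each tumour left out in turn, with the members' median (solid bars) and the median of all genes tested (dashed bars). The members' median lies at -0.70 without 45D3 and at -0.13 without 67D3, against -0.37 with all 5 tumours, while the median of all genes stays between -0.03 and 0.00.

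Further genes of cell division outside the list were also counted. Of 49 tested further genes of mitosis, 48 were lower on average, with a median of -0.32; 3 were lower at an unadjusted p under 0.05, a share near the 4.36% of all genes, and 0 passed the adjusted threshold. Of all genes tested, 52.1% were lower on average. The smallest p-values were those of Pkmyt1, the membrane-bound kinase that inhibits Cdk1, which averaged 6.51 ± 0.43 in final and 7.08 ± 0.32 in basal samples and was lower in 5 of 5 tumours (difference -0.57, adjusted p = 0.517, limma), and Troap, at -0.53 and lower in 4 of 5. Over all genes tested, 5.27% were lower in all 5 tumours and 26.7% in 4 or 5. All 28 tested DNA replication genes were lower on average, with a median of -0.29, and 2 had an unadjusted p under 0.05, again near 4.36%. Cdc45, a helicase cofactor, differed by -0.43, and Mcm7, a helicase subunit, by -0.36. The 20 tested regulators of mitotic gene transcription were mixed, with 13 lower and 7 higher and a median of -0.13. Of the 20, 4 were lower at an unadjusted p under 0.05, against 4.36% of all genes. Among them E2f5, a repressor-type E2F, had non-overlapping values, with 7.57 ± 0.10 in final and 8.02 ± 0.11 in basal samples (SD, n = 5 each). Over all genes tested, 1.2% had ranges that did not overlap. E2f5 was named for the smallest p in its list. It was lower in 5 of 5 tumours (5.27% of all genes), 45D3 included at -0.44, with a difference of -0.45 and an adjusted p of 0.413 (limma). E2f8 differed by -0.52.

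Skeletal muscle markers differed between the groups too. All 10 tested markers of 14 listed were higher on average in final samples, with a median of 2.77, against 47.9% of all genes above 0. Of the 10, 7 were higher at an unadjusted p under 0.05, against 2.78% of all genes, and 0 passed the adjusted threshold. Their linear signals summed in final samples to 47000 for 67D3, 12900 for 66D2, 5100 for 49I1, 2920 for 45D3 and 1890 for 51I1, against 1570 to 2890 in basal samples, where 8 of the 13 measured markers (Myh2, Myh4, Ckm, Mb, Tnnt3, Tnnc2, Pvalb and Ttn) were under the filter level in every biopsy. The lowest mitotic signals and the highest muscle signals fell in the same array, the final sample of 67D3. From the highest final muscle sum to the lowest (67D3, 66D2, 49I1, 45D3 and 51I1), the members' median differences were -1.34, -0.06, -1.04, 0.92 and -0.40. As a share of all linear signal, muscle markers made up 0.0186% to 0.464% in final and 0.0154% to 0.0287% in basal samples, and the 40 mitotic members 0.0266% to 0.247% in final and 0.064% to 0.337% in basal samples. The part of the muscle signal in the mitotic difference was not tested. The fit with the muscle change as a covariate does not test it, since it gives the difference at a muscle change outside those seen.

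Other cell types differed as well. All 14 collagen and fibroblast markers were higher on average in final samples, with a median of 0.60, against 47.9% of all genes above 0. The sign of their median was opposite to that of the mitotic genes in each of the 5 tumours (-1.0 in 45D3, and 0.61 to 1.13 in the other 4). The same held for the adipocyte markers (-0.96 in 45D3, and 0.15 to 2.78 in the other 4). It did not hold for the other cell type lists. For example, medians had the sign of the mitotic genes for endothelium in 49I1 (-0.28), skeletal muscle in 45D3 (0.29) and T and NK cells in 67D3 (-0.97). In 66D2 the mitotic median was only -0.06. The hexokinase gap changed by -1.02 in 67D3, by -1.47 in 45D3, and by between -0.27 and 0.11 in the other 3. The GAPDH gap changed by 0.01 in 67D3, by -0.45 in 45D3, and by between -0.04 and 0.05 in the other 3. For beta-actin the changes were -0.05, -0.55, and between -0.21 and 0.20. The luminal markers had a median of 0.04, with 5 lower and 8 higher. The other lists had medians of 0.97 (adipocyte), 0.42 (endothelium), 0.36 (T and NK cells), -0.01 (macrophage), -0.06 (myoepithelium and smooth muscle) and -0.11 (B and plasma cells, 1 gene tested), with 0 genes past the adjusted threshold. The part of these values in the mitotic differences was not tested.

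**Figure D5:**
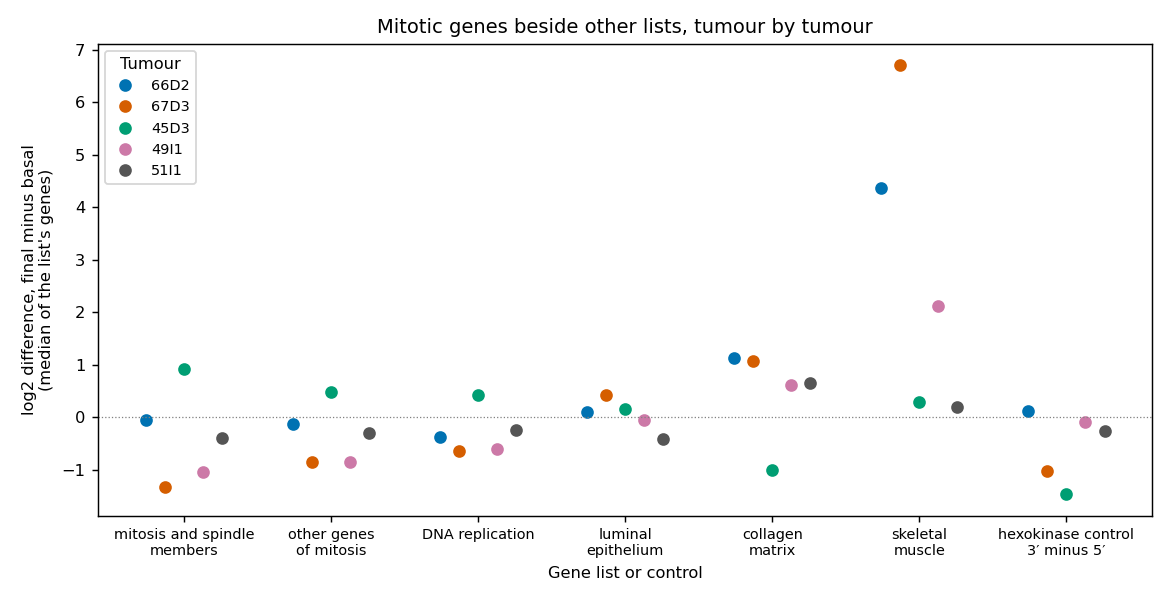
Median log2 difference, final minus basal, of the mitotic members and of other gene lists, and the change in the hexokinase gap, with one point for each tumour. Mitotic members, further mitosis genes and replication genes are each highest in 45D3, at 0.92, 0.47 and 0.42, and lowest in 67D3 and 49I1, while skeletal muscle markers reach 6.70 in 67D3.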

How the data were processed

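Gene expression was measured on Affymetrix rat genome expression arrays. The authors had normalised the signals by RMA, the Robust Multichip Average, per the labels' design text and the submitters' notes. As deposited by the authors, the values were taken to be log2 signals from their range, a scale that no label states. RMA forces arrays towards one distribution, and hence hides any change in the total RNA of a cell. Control and dim probe sets were removed by the authors before their own test, per the design text, yet the table of 31099 probe sets still held 57 controls. Probe sets took their symbols from the platform annotation of 2016: of 31042 without controls, 20826 had 1 symbol, 436 several and 9780 none. The filter on dim signal kept 18625 probe sets (10839 genes). The number of unused columns of values was 0.

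Final minus basal differences came from limma 3.58.1 under R 4.3.3 (functions lmFit and eBayes), with the tumour code shared by a final sample and its biopsy in the labels as a block, and p-values were adjusted by Benjamini-Hochberg over all 18625 probe sets. The fit left 4 residual degrees of freedom, and the scripts were tested on simulated data. The check of the pairing used the deviation of each probe set from its mean over the 5 arrays of a group, and not the signals themselves. On these deviations the samples of a tumour had a mean correlation of 0.30 (0.72 in 66D2, -0.16 in 45D3), and 4 of 5 final samples were most like their own biopsy. The number of arrays limits the precision, and p-values cover only the spread between these 5 tumours; the labels give a tumour code and no separate rat. The authors used Student's test for paired samples, per the design text.

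The members, the role groups, the further lists and the alternatives were chosen with earlier results of these data known, so the lists are no independent support. Every member is named with its difference; values in every array are given for 12 members chosen by role, the 4 with the smallest p and those with the highest and lowest differences; 2 genes of each further list are named by smallest p. The alternatives were the block, leaving out each tumour, the filter, the probe set rule, centring, quantile normalisation, array weights (statmod 1.5.0), covariates, a mean-variance trend and the methods' t-test. Promoter sequences came from RefSeq on GRCr8.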

Additional observations from a re-analysis of the deposited data

Results flagged for a closer look

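Of 120 groups of 5 values examined for a sample far from the others (the final levels, the basal levels and the differences of 40 members), 9 held one, where chance gives about 1 in 20 groups. In 8 of them the final sample of 67D3 was far below the next lowest final sample. Ccna2 read 5.09 there, with the next at 7.90, Bub1b 4.66 with the next at 7.20, Aurkb 5.45 with the next at 8.36, and Kif11 4.97 with the next at 7.60. Cdkn3 read 6.68 with the next at 8.97, Dlgap5 5.93 with the next at 7.77, Ect2 5.31 with the next at 8.16, and Melk 4.92 with the next at 7.82. The skeletal muscle markers had their highest sum, 47000, on the same array, and the part of that signal in these low values was not tested. The 8 genes share 1 array, so they are not 8 separate events. The last is Kif2c, whose final minus basal difference was 0.55 in 45D3, with the next highest at -0.25 in 66D2.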

How the results depend on the processing

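In all settings that kept the 5 tumours, other than the skeletal muscle covariate, the difference was below 0 for every member tested. The members' median lay between -0.65 (hexokinase covariate) and -0.35 (mean of all probe sets of a gene, and luminal covariate). In the covariate fits the difference is the value fitted at no change of the covariate, and not the mean over the tumours. Without the paired block the median was -0.37 and 0 probe sets passed the adjusted p (1001 at an unadjusted p under 0.05, against 1494 with the block), and with the tumour as a random block these were -0.37, 0 and 1620; the block changed no call. The methods' t-test gave 1394 probe sets at an unadjusted p under 0.05 and 0 after Benjamini-Hochberg. With the hexokinase covariate 2 probe sets passed the adjusted p, against 0, and neither stood for a member. Members at an unadjusted p under 0.05 numbered 0 in the paired fit, 0 to 33 with each tumour left out (33 without 45D3), 8 with array weights and 15 without 45D3 and 67D3. The difference of Mki67 ran from -0.58 without 45D3 to 0.03 without 67D3. With the skeletal muscle covariate 3 members (Foxm1, Cenpe and Cdca8) stayed below 0, against 39, the members' median was 0.16, and the smallest adjusted p was 1.0; the differences were Mki67 0.39, Top2a 0.33, Ccnb1 0.27, Ccnb2 0.09, Ccna2 0.33, Cdk1 0.32, Bub1 0.14, Bub1b 0.09, Aurka 0.01, Aurkb 0.32, Plk1 0.13, Cdc20 0.15, Birc5 0.16, Ttk 0.24, Nusap1 0.11, Kif11 0.22, Kif20a 0.26, Kif23 0.17, Kif2c 0.02, Kif22 0.10, Cenpf 0.19, Prc1 0.10, Cks2 0.23, Ube2c 0.16, Cdkn3 0.08, Nuf2 0.25, Dlgap5 0.04, Ect2 0.20, Racgap1 0.19, Melk 0.23, Pttg1 0.19, Mad2l1 0.05, Spag5 0.06, Cdca3 0.23, Hmmr 0.28 and Ccnf 0.11. The cause was not tested. That fit has 1 residual degree of freedom fewer over 5 tumours. The muscle change of a tumour runs from 0.20 to 6.70, so the differences at no muscle change lie outside the changes seen. The design text takes the BioB spike as the mark of sensitivity. The spike averaged 8.04, and all 40 members were under that level in the final sample of 67D3. The members' median was also under it in the biopsies of 67D3 (7.07) and 45D3 (7.15), and just under it in the final sample of 45D3 (8.03). On the remaining arrays that median lay between 8.38 and 9.49.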
